A study of Mus musculus with 4 samples.

Results

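Voltage-gated sodium channels, voltage-gated calcium channels and hyperpolarization-activated cyclic nucleotide-gated (HCN) pacemaker channels were examined in adult mouse whole brain after ethanol exposure in the first postnatal week. The members are the probe sets whose platform annotation names 1 gene only, with a symbol of the Scn, Cacna, Cacnb, Cacng or Hcn families. This rule found 54 probe sets for 38 genes, out of 21797 probe sets naming 1 gene (19946 genes) among the 35556 probe sets on the array. Of the 54, 35 probe sets (21 genes) measure subunits that form the pore and 19 (17 genes) measure auxiliary subunits, and 14 of the 54 measure Scn2a alone.

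RNA was measured on 4 arrays, called ethanol 2, ethanol 4, control 1 and control 3 after their titles, so there were 2 arrays per group. Each array held equal amounts of whole brain RNA of 3 male C57BL/6J mice from different litters. Ethanol pups were given 2 subcutaneous doses of 2.5 g/kg ethanol in saline, with 2 hours between them, both on postnatal day 4 and on day 7, whereas control pups were given saline alone. In both groups the dam was taken out of the cage during the injections, and mice were weaned on day 25 and killed on day 60 by the labels, whereas the methods give other days. For ethanol 4 and control 1 a treatment entry among the labels contradicts the title, and the groups here are those of the titles, which the source names share. The labels say that ethanol and control mice shared dams, without saying which pools hold littermates. A pool hides the spread between its mice, so the errors below concern pools and not mice. They are the moderated standard errors (SE) of the limma fit. It draws the spread between the pools of each probe set toward that of all probe sets.

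Sodium channels open on depolarization and carry the upstroke of the action potential. Calcium channels of the L, P/Q, N, R and T types turn voltage changes into calcium entry, which drives transmitter release, dendritic signalling and activity-dependent transcription. HCN channels open on hyperpolarization, are tuned by cyclic AMP and shape resting potential and rhythmic firing. Auxiliary subunits set how much of each pore reaches the membrane and how it gates, and the gamma family also holds the transmembrane AMPA receptor regulatory proteins (TARPs).

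As deposited, the array medians were 6.33 on ethanol 2, 6.38 on ethanol 4, 6.61 on control 1 and 6.51 on control 3 in log2 signal. The medians of the ethanol arrays were below those of the control arrays, and 80.2% of all probe sets were lower in ethanol. Values are as deposited unless said otherwise. Counts of calls, and the differences of genes past the limits described next, are also given after quantile normalization, which gives the 4 arrays the same distribution. In bulk tissue, fewer cells of a type and less RNA per cell cannot be told apart. Neuron markers (7 genes) and astrocyte markers (6 genes) held no gene past those limits as deposited or after quantile normalization. In other marker lists Gabra6 of cerebellar granule cells was higher (0.51) past the limits in both forms. The other granule cell markers measured, Neurod1 (-0.10), Cbln1 (-0.11) and Cbln3 (-0.15), were lower and not past them. Cnp of oligodendrocytes (-0.29) and the pituitary gene Pomc (-0.53) were lower past the limits in both forms. Pecam1 of endothelium (-0.37), Kl of choroid plexus (-0.42) and the muscle genes Myh4 (-0.56) and Tnnt3 (-0.40) were lower past them as deposited only. Cspg4 of oligodendrocyte precursors (0.33) and Actc1 of muscle (0.35) were higher past them after quantile normalization only. The lists of these genes were not uniform. As deposited, oligodendrocytes had 5 negative and 1 positive differences, as had endothelial and mural cells, and muscle had 5 and 3. Choroid plexus had 5 and 0, pituitary 7 and 0, and oligodendrocyte precursors 0 and 3. After quantile normalization endothelial and mural cells had 3 and 3, muscle 4 and 4 and pituitary 6 and 1. The other lists named were unchanged. Ethanol 2 stood apart in pituitary hormone genes, whose 7 measured markers averaged 5.61 on ethanol 2, 7.92 on ethanol 4, 7.96 on control 1 and 7.90 on control 3. Gh was at 6.53 on ethanol 2 and 12.26 on ethanol 4, against 12.24 and 12.19 on control 1 and control 3. The part of these markers in the channel results was not tested, but the channel counts without ethanol 2 are given beside them.

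The first question was whether channel transcripts differed between ethanol and control brains. The study's limits, a 1.2-fold difference and an unadjusted p below 0.05, were applied to the limma fit. No channel probe set passed a Benjamini-Hochberg adjusted p of 0.05 in limma, the smallest being 0.156 as deposited and 0.197 after quantile normalization, and 9 and 6 had an unadjusted p below 0.05. As deposited, 6 of the 54 (11.1%) were past the limits and lower in ethanol, against 17.9% of all probe sets, and 1 (1.85%) was past the limits and higher, against 2.23%. After quantile normalization 4 (7.41%) were past the limits and lower, against 5.87% of all, and 2 (3.7%) were higher, against 5.71%. In either direction these were 7 (13%) as deposited, against 20.1% of all probe sets, and 6 (11.1%) after quantile normalization, against 11.6%. The shares of the channel probe sets were thus near or below those of the whole array, which includes probe sets that name no gene or several. Among the 21797 probe sets naming 1 gene, as the members do, 3491 were lower past the limits as deposited and 119 higher. After quantile normalization these were 747 and 796. Against these the channel share was smaller for lower calls as deposited and larger for lower calls after quantile normalization. For higher calls it rested on 1 and 2 probe sets. Without ethanol 2, 5 channel probe sets were lower past the limits as deposited, against 9.84% of all probe sets, and 3 of the 5 were among the 6. With the test named in the methods, which shares no spread between probe sets, in place of limma 3 of the 6 remained, namely Scn3a, Cacng8 and 1 Scn2a probe set, and Cacna1c, Cacna1h and Hcn4 did not. By that test 8.11% of all probe sets were lower past the limits. With the groups taken from the treatment entry, no channel probe set was past the limits as deposited in limma (0 lower and 0 higher, against 0.686% and 0.917% of all probe sets), and the signs of 27 of the 54 differences turned.

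The direction of the channel probe sets followed that of the array as deposited. As deposited, 46 of the 54 differences (ethanol minus control, log2) were negative and 8 positive, with a median of -0.13 against -0.15 over all probe sets. After quantile normalization 31 were negative and 23 positive with a median of -0.02, and with each array centred on its median 15 were negative and 39 positive with a median of 0.09. The calls past the limits were split 6 lower to 1 higher as deposited, 4 to 2 after quantile normalization and 1 to 5 after centring, where 3.91% of all probe sets were lower and 9.09% higher. Both ethanol arrays lay below both control arrays in 26 of the 54 as deposited, against 52.7% of all probe sets, and above them in 4, against 7.25%. After quantile normalization these counts were 20 (37%, against 24.9% of all probe sets) and 12 (22.2%, against 24% of all). Counted in either direction, the groups were apart in 30 of the 54 (55.6%) as deposited, against 60% of all probe sets. After quantile normalization they were apart in 32 (59.3%), against 48.9%. The median gap between arrays of 1 group was 0.12 for ethanol 2 and ethanol 4 and 0.11 for control 1 and control 3. The group difference was larger than both gaps in 24 of the 54, against 46.2% of all probe sets, and in 19 after quantile normalization, against 35.4%.

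**Figure D1:**
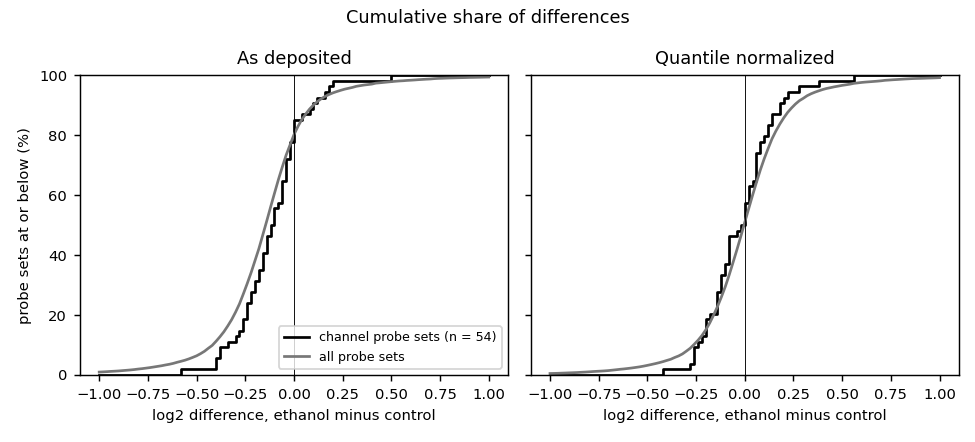
Cumulative share of probe sets (vertical axis, percent) at or below each log2 difference, ethanol minus control (horizontal axis), for the 54 channel probe sets (black) and for all probe sets (grey), as deposited on the left and quantile normalized on the right. As deposited the black curve runs close to the grey one in the middle (medians of -0.13 and -0.15), and Scn3a at -0.59 is its lowest point. After quantile normalization the medians are -0.02 and -0.004. There 46.3% of the channel probe sets and 33.4% of all lie at or below -0.08.

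Pore-forming and auxiliary probe sets were alike in their medians, at -0.12 and -0.14 as deposited and -0.04 and -0.003 after quantile normalization. Past the limits were 5 pore-forming probe sets that were lower and 1 that was higher, and 1 auxiliary probe set that was lower. After quantile normalization these counts were 3, 2 and 1. The difference between both kinds was not tested. The 7 channel probe sets with a mean log2 signal below 6 had differences of -0.16 to 0.10, and none of them was past the limits in limma as deposited or after quantile normalization (0 of the 7 had an unadjusted p below 0.05). They measure Scn10a, Scn11a and 1 of the Scn9a probe sets, which name channels known from peripheral sensory neurons, and Cacna1f, Cacna1s, Cacna2d4 and Cacnb2.

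**Figure D2:**
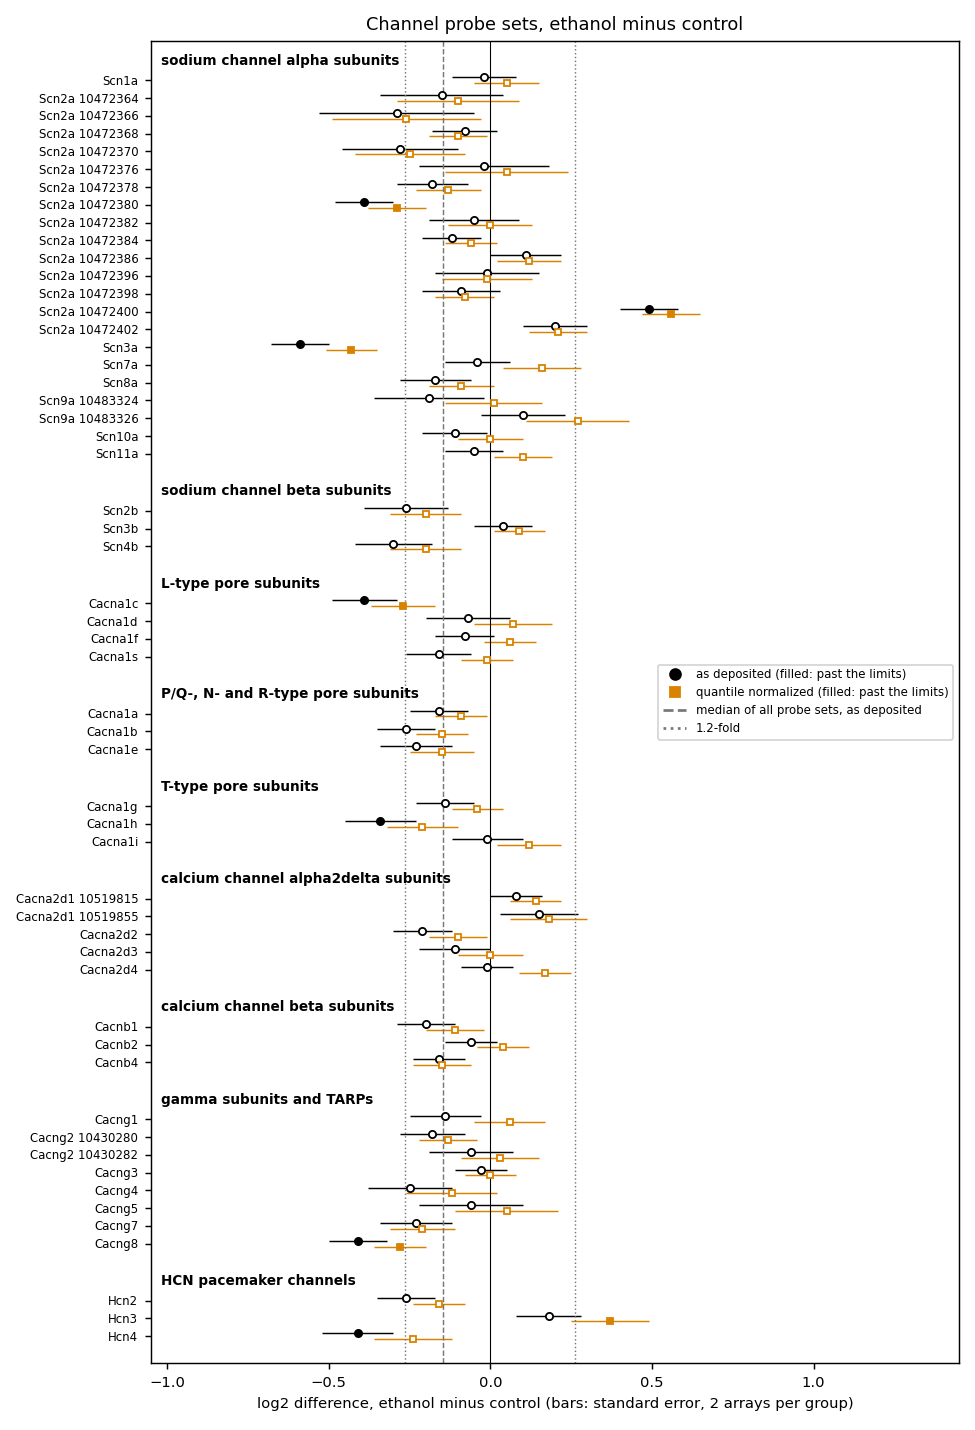
Log2 difference of each channel probe set, ethanol minus control (horizontal axis), by channel class down the page, as deposited (circles) and quantile normalized (squares), with the moderated standard error of the limma fit (2 arrays per group) as bars and filled symbols past the limits. The lowest value is Scn3a at -0.59 and the highest is 1 Scn2a probe set at 0.49, and most circles lie left of 0 together with the median of all probe sets (dashed).

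Sodium channel alpha subunits, which form the pore, had 22 probe sets for 8 genes, of which 2 were past the limits and lower, 1 was higher and 19 were neither, both as deposited and after quantile normalization. Scn3a, the alpha subunit that is abundant in the embryonic rodent brain and declines after birth, had log2 signals of 7.32 on ethanol 2 and 7.36 on ethanol 4, against 8.00 on control 1 and 7.86 on control 3. The groups did not overlap, and the distance between them was several times the gap within either. The difference was -0.59 ± 0.09 (SE, n = 2 arrays per group), 1.51-fold lower in ethanol, with an unadjusted p of 0.00209 and an adjusted p of 0.156 in limma. It was -0.43 after quantile normalization and -0.38 with centred arrays, and among the 54 only Scn3a was lower past the limits in both of these, at a 1.5-fold limit and with any 1 array left out. Grouped by the treatment entry its difference was 0.05. With the groups of the titles and without ethanol 2, the Scn3a difference was -0.57 as deposited.

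Of the other alpha subunits, Scn1a, which carries much of the sodium current of parvalbumin interneurons, had 10.19 and 10.03 on ethanol 2 and ethanol 4, against 10.13 and 10.14 on control 1 and control 3. Its groups overlapped, and the difference of -0.02 had a 95% interval of -0.29 to 0.24. Scn8a, found at axon initial segments and nodes of Ranvier, had 9.99 and 10.12 on ethanol 2 and ethanol 4, against 10.32 and 10.13 on control 1 and control 3. Its lowest control array was close to its highest ethanol array, and the difference of -0.17 had an interval of -0.46 to 0.12. Scn7a, a sodium-sensing member of the family found in circumventricular organs, differed by -0.04 and Scn10a by -0.11. The 2 probe sets of Scn9a differed by -0.19 and 0.10, and Scn11a by -0.05. In the GRCm38.p6 gene table Scn3a and Scn2a are neighbours on chromosome 2, as are Scn1a, Scn9a and Scn7a, and Scn10a and Scn11a are neighbours on chromosome 9. Scn3a and Scn2a held all 3 alpha calls, but 14 of the 22 alpha probe sets measure Scn2a. Its own calls were split, 1 lower and 1 higher. As deposited, 17.9% of all probe sets were lower past the limits and 2.23% higher. Scn1a, Scn9a and Scn7a held no call (unadjusted p of 0.319 or more in limma for their 4 probe sets as deposited). With such unequal numbers of probe sets, the counts do not compare the neighbours.

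Scn2a encodes the alpha subunit that dominates the axons of young excitatory neurons and remains at their initial segments. Its 14 probe sets did not move together, with differences of -0.39 to 0.49 as deposited (11 negative and 3 positive) and -0.29 to 0.56 after quantile normalization. Probe set 10472380 had 9.31 and 9.18 on ethanol 2 and ethanol 4, against 9.63 and 9.65 on control 1 and control 3. Probe set 10472400 had 13.89 and 13.76 on ethanol 2 and ethanol 4, against 13.33 and 13.33 on control 1 and control 3. In the first both ethanol arrays were low and in the second both were high, with no overlap in either. The differences were -0.39 ± 0.09 (adjusted p of 0.172 in limma) and 0.49 ± 0.09 (adjusted p of 0.166 in limma; SE, n = 2 arrays per group). After quantile normalization they were -0.29 and 0.56, both past the limits. Probe set 10472400 was past the limits with any 1 array left out, with or without quantile normalization. Probe set 10472380 was not past them without ethanol 4 (-0.33, unadjusted p of 0.052 in limma), and after quantile normalization it was past them only without ethanol 2 among the 4 arrays. Grouped by the treatment entry, they differed by 0.05 and 0.07.

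Of the probe sets next to 10472400 in identifier order, 10472398 had 13.01 and 12.88 on ethanol 2 and ethanol 4, against 13.14 and 12.93 on control 1 and control 3, a difference of -0.09 ± 0.12 with overlapping groups. On its other side, 10472402 had 11.62 and 11.47 on ethanol 2 and ethanol 4, against 11.36 and 11.34 on control 1 and control 3. Both ethanol arrays were the higher ones, with a difference of 0.20 ± 0.10 that was not past the limits. On 10472364, 10472366 and 10472370, ethanol 4 was lower than the 3 other arrays. On 10472366 the log2 signals were 11.48 and 10.84 on ethanol 2 and ethanol 4, against 11.57 and 11.33 on control 1 and control 3, so the gap within the ethanol group (0.64) exceeded the group difference of -0.29 ± 0.24. The remaining Scn2a probe sets had differences of -0.18 to 0.11. The annotation used here gives no position of the probe sets within the gene, so which exons or transcripts they measure was not analysed here. A further 3 probe sets name several of the alpha genes at once and are not among the 54. They differed by -0.14 (Scn2a, Scn9a and Scn3a), -0.19 (Scn9a and Scn3a) and 0.05 (Scn3a and Scn1a), and none was past the limits in limma as deposited, with the smallest unadjusted p at 0.0935.

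**Figure D3:**
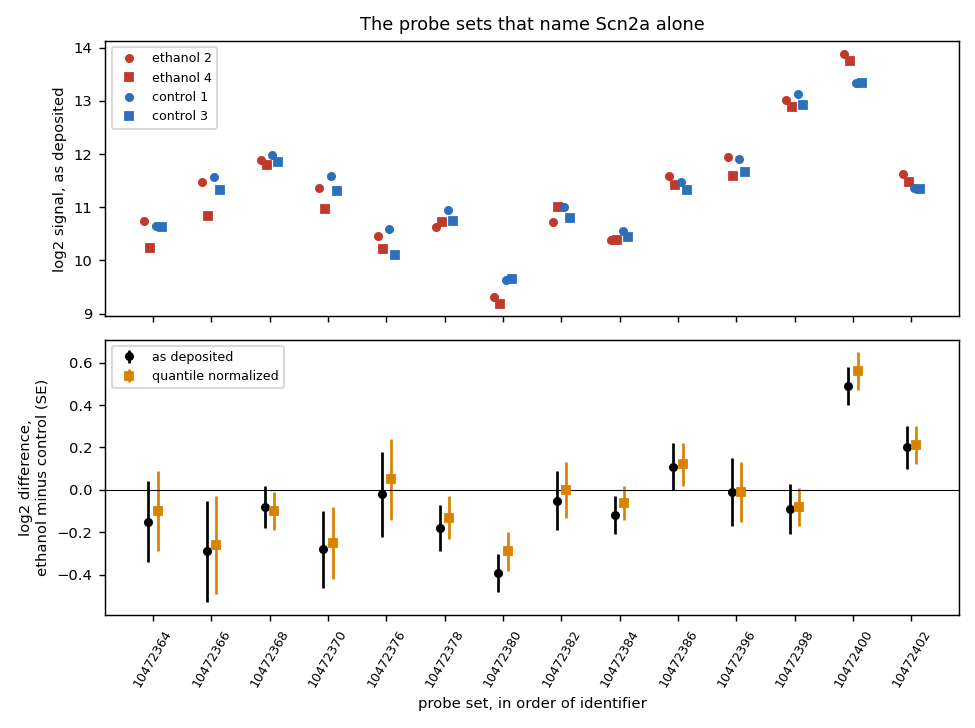
Log2 signal of the 14 Scn2a probe sets on the 4 arrays (upper panel) and the log2 difference, ethanol minus control, with its standard error as bars (lower panel), in order of identifier. Probe set 10472400 lies highest above 0 at 0.49 as deposited and 10472380 lowest at -0.39, and the ethanol arrays part from each other on 10472364, 10472366 and 10472370.

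Of the sodium channel beta subunits, single-pass proteins that bind the pore and also act in cell adhesion, 0 of 3 probe sets were past the limits in limma as deposited or after quantile normalization (0 with an unadjusted p below 0.05). Scn4b, which is known for resurgent current in Purkinje cells, had 9.42 and 9.48 on ethanol 2 and ethanol 4, against 9.89 and 9.62 on control 1 and control 3. The ethanol arrays were the lower ones, and the control arrays were further from each other than the ethanol arrays were. The difference was -0.30 ± 0.12 (unadjusted p of 0.0619 in limma) and -0.20 after quantile normalization, not past the limits in either form. It rested on which control array was used, being -0.17 without control 1 and -0.44 without control 3, and -0.08 and -0.32 for the same arrays left out after quantile normalization. Without control 3 it was past the limits in both forms. Scn2b had 10.55 and 10.73 on ethanol 2 and ethanol 4, against 11.02 and 10.78 on control 1 and control 3, a difference of -0.26 ± 0.13. It is the neighbour of Scn4b on chromosome 9. Scn3b differed by 0.04 with a 95% interval of -0.19 to 0.27.

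Among L-type pore subunits, which couple depolarization to transcription in neurons, 1 of 4 was past the limits. Cacna1c, the main L-type pore of the forebrain, had 8.72 and 8.90 on ethanol 2 and ethanol 4, against 9.21 and 9.18 on control 1 and control 3. Both ethanol arrays were low and ethanol 2 was the lowest. The difference was -0.39 ± 0.10, 1.31-fold lower in ethanol (adjusted p of 0.175 in limma), and -0.27 after quantile normalization, again past the limits. As deposited it was -0.30 without ethanol 2 (unadjusted p of 0.0672 in limma) and -0.38 without control 1 (0.0551), neither past the limits, and it was not past them with the test named in the methods. After quantile normalization it was past them only without ethanol 4 among the 4 arrays. Cacna1d, the other neuronal L-type pore, had 8.19 and 8.48 on ethanol 2 and ethanol 4, against 8.46 and 8.35 on control 1 and control 3. These overlapped, with a difference of -0.07. Cacna1f, known from photoreceptors, and Cacna1s, known from skeletal muscle, were dim and differed by -0.08 and -0.16.

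The P/Q-, N- and R-type pores admit the calcium that triggers transmitter release. All 3 lay lower on both ethanol arrays than on both control arrays, as deposited and after quantile normalization, where 52.7% and 24.9% of all probe sets did so, and 0 of 3 were past the limits in limma in either form (1 and 0 with an unadjusted p below 0.05). Cacna1b, the N-type pore, had 9.43 and 9.50 on ethanol 2 and ethanol 4, against 9.76 and 9.69 on control 1 and control 3. Its difference of -0.26 ± 0.09 (unadjusted p of 0.0352 in limma) was just inside 1.2-fold, and it was -0.15 after quantile normalization. Cacna1e, the R-type pore, had 9.91 and 10.04 on ethanol 2 and ethanol 4, against 10.29 and 10.11 on control 1 and control 3, a difference of -0.23. Cacna1a, the P/Q-type pore that dominates in Purkinje cells, had 10.14 and 10.21 on ethanol 2 and ethanol 4, against 10.39 and 10.29 on control 1 and control 3, a difference of -0.16. Grouped by the treatment entry, Cacna1b differed by 0.00.

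T-type pores open near rest and support burst firing, as in thalamic relay cells. Cacna1h had 8.15 and 8.32 on ethanol 2 and ethanol 4, against 8.51 and 8.65 on control 1 and control 3. The groups did not overlap, and ethanol 2 was the lowest array. The difference was -0.34 ± 0.11, 1.27-fold lower in ethanol (adjusted p of 0.196 in limma), but -0.21 and not past the limits after quantile normalization, nor as deposited without ethanol 2 (-0.26) or without control 3 (-0.27). It was also not past them with the test named in the methods or in limma with ethanol 2 and control 3 as a pair in a replicate block (unadjusted p of 0.0595). Cacna1g differed by -0.14. Cacna1i had 8.72 and 8.94 on ethanol 2 and ethanol 4, against 8.84 and 8.82 on control 1 and control 3, and its control arrays lay between its ethanol arrays.

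The alpha2delta subunits are extracellular proteins that bring calcium channels to the membrane, and Cacna2d1 and Cacna2d2 encode binding sites of gabapentin. Of their 5 probe sets (4 genes) 0 were past the limits in limma in either form (0 with an unadjusted p below 0.05). Cacna2d2 had 9.58 and 9.71 on ethanol 2 and ethanol 4, against 9.83 and 9.88 on control 1 and control 3, a difference of -0.21 ± 0.09 (unadjusted p of 0.0797 in limma). It was -0.10 after quantile normalization and 0.00 with centred arrays. The 2 probe sets of Cacna2d1 went the other way, with differences of 0.08 and 0.15 as deposited and 0.14 and 0.18 after quantile normalization. On 1 of them ethanol 2 and ethanol 4 had 10.46 and 10.45, against 10.38 and 10.38 on control 1 and control 3, so the groups did not overlap although they were close. The other had 11.39 and 11.12 on ethanol 2 and ethanol 4, against 11.09 and 11.12 on control 1 and control 3, and ethanol 2 alone was high. The class median was -0.01 as deposited and 0.14 after quantile normalization. Cacna2d3 and Cacna2d4 differed by -0.11 and -0.01.

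The cytosolic calcium channel beta subunits, which chaperone the pore, lay lower on both ethanol arrays than on both control arrays in all 3 genes as deposited (52.7% of all probe sets did) and in 2 of 3 after quantile normalization (24.9% of all), where Cacnb2 lay higher. Of the 3 genes 0 were past the limits in limma in either form (0 with an unadjusted p below 0.05). Cacnb1 had 9.95 and 9.97 on ethanol 2 and ethanol 4, against 10.12 and 10.21 on control 1 and control 3, a difference of -0.20 ± 0.09 (unadjusted p of 0.0738 in limma) and of -0.11 after quantile normalization. Cacnb4, whose loss gives the lethargic mouse, had 11.63 and 11.67 on ethanol 2 and ethanol 4, against 11.81 and 11.81 on control 1 and control 3. Here the arrays of each group were close together, and the difference was -0.16 as deposited and -0.15 after quantile normalization. Cacnb2 was dim and differed by -0.06.

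The gamma family had 8 probe sets for 7 genes. All 8 differences were negative as deposited and 5 after quantile normalization. Cacng8, a TARP that is concentrated in the hippocampus and holds AMPA receptors at the membrane, had 8.54 and 8.63 on ethanol 2 and ethanol 4, against 9.01 and 8.98 on control 1 and control 3. The arrays of each group were close together and the groups were far apart. The difference was -0.41 ± 0.09, 1.33-fold lower in ethanol (adjusted p of 0.171 in limma), and -0.28 after quantile normalization, past the limits in both. As deposited it stayed past them with any 1 array left out (-0.36 without ethanol 2), whereas after quantile normalization it was past them only without ethanol 4 among the 4 arrays. Its neighbour on chromosome 7, Cacng7, had 11.11 and 11.31 on ethanol 2 and ethanol 4, against 11.48 and 11.39 on control 1 and control 3, a difference of -0.23 ± 0.11. Cacng2, the stargazin gene, had differences of -0.18 and -0.06 on its 2 probe sets. Cacng3, a cortical TARP, had 11.66 and 11.70 on ethanol 2 and ethanol 4, against 11.72 and 11.69 on control 1 and control 3, a difference of -0.03 with a 95% interval of -0.25 to 0.19. Cacng4 and Cacng5, neighbours on chromosome 11 with Cacng1, differed by -0.25 and -0.06. Cacng1, a skeletal muscle subunit, differed by -0.14.

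HCN pacemaker channels had 3 genes, of which Hcn4 was past the limits and lower as deposited and Hcn3 was past them and higher after quantile normalization. Hcn4, the slow pacemaker of the sinoatrial node that in brain is prominent in the thalamus, had 7.33 and 7.37 on ethanol 2 and ethanol 4, against 7.66 and 7.86 on control 1 and control 3. The ethanol arrays were nearly equal and below both control arrays. The difference was -0.41 ± 0.11, 1.33-fold lower in ethanol (adjusted p of 0.174 in limma), but -0.24 and not past the limits after quantile normalization. As deposited it was not past them without ethanol 2 (-0.40, unadjusted p of 0.0611 in limma) or without control 3 (-0.32, 0.0556), nor with the test named in the methods. Hcn2, the most widespread neuronal pacemaker channel gene, had 9.65 and 9.67 on ethanol 2 and ethanol 4, against 9.95 and 9.89 on control 1 and control 3. Its groups were apart, and its difference of -0.26 ± 0.09 (unadjusted p of 0.032 in limma) was just inside 1.2-fold and became -0.16 after quantile normalization. Hcn3 had 6.27 and 6.07 on ethanol 2 and ethanol 4, against 6.01 and 5.98 on control 1 and control 3. It was dim, with a mean log2 signal of 6.08 that was below the median of every array. Both ethanol arrays were higher, ethanol 2 more so, and without ethanol 2 the difference was 0.08 as deposited and 0.24 after quantile normalization. With all arrays it was 0.18 ± 0.10 and not past the limits as deposited but was 0.37 and past them after quantile normalization (adjusted p of 0.336 in limma), where it was past them only without ethanol 4 among the 4 arrays.

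**Figure D4:**
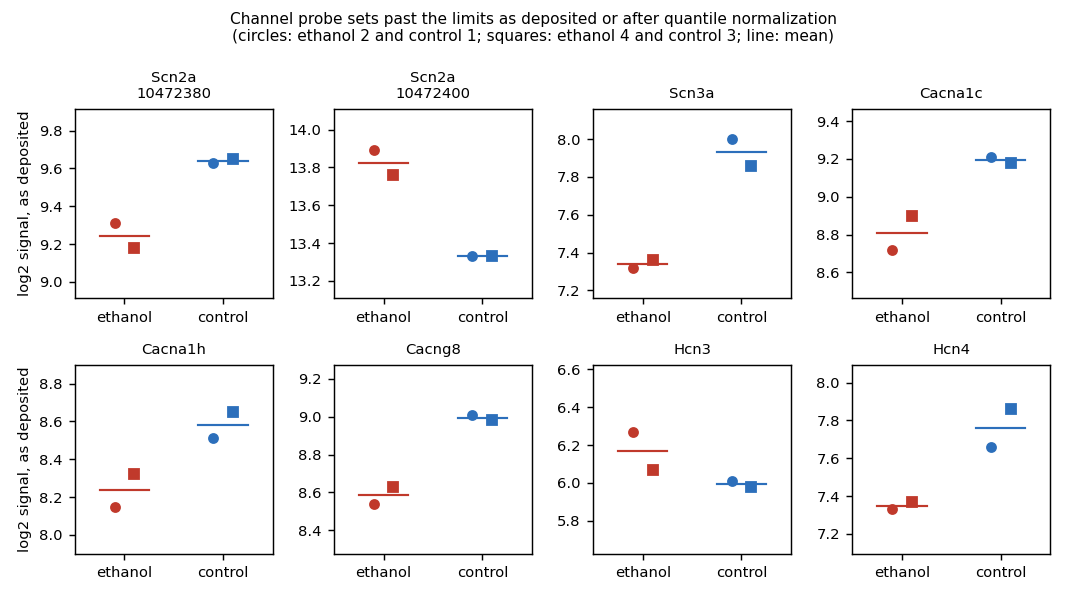
Log2 signal as deposited on ethanol and control arrays, with the mean of each group as a line, for the 8 channel probe sets past the limits as deposited or after quantile normalization. In each panel the vertical axis spans the same range of 1 log2 unit, and both ethanol arrays lie below both control arrays except for Scn2a 10472400 and Hcn3, where they lie above.

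The 250 bases before annotated starts (RefSeq, GRCm38.p6) were looked up for the channel genes, and 29 of the 38 had at least 1 such window, 39 windows in all. CpG dinucleotides (the letters CG, the same on both strands) were counted in each. Channel gene windows held 0 to 50 CpG with a median of 9, against a median of 6 over all 32851 windows, of which 92.1% held at least 1. Of the 7 channel genes past the limits in either form, Scn3a, Cacna1h and Hcn3 had no window here. Among the 4 others, the windows richest in CpG belonged to Cacna1c (48, the highest of its 3 windows) and Hcn4 (25). They are shown as the CpG-rich starts among these 4 genes, with each CpG in capitals, 5′ to 3′ on the strand of the gene. DNA methylation was not measured on these arrays. Cacna1c lies at chr6:119108496-119108745 on the minus strand and Hcn4 at chr9:58822699-58822948 on the plus strand.
Cacna1c: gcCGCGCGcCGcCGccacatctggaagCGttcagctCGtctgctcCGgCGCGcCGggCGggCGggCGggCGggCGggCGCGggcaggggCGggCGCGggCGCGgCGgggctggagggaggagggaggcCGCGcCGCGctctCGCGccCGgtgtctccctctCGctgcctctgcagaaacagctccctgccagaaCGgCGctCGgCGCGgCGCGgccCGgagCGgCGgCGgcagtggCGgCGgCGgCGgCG
Hcn4: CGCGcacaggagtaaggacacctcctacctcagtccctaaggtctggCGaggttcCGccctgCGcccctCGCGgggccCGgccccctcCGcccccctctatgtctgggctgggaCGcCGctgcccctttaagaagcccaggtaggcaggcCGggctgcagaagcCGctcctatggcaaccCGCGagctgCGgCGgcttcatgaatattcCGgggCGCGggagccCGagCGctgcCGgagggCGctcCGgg
The other windows of these genes and of Scn2a, Cacng8 and Hcn2 held 0 to 16 CpG. Both printed windows are dense in CpG, and 10.7% of all windows held 25 or more. The count describes the letters only.

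Genes that work with these channels were examined in 4 lists with 62 of 68 genes measured. As deposited 16 of the 62 were past the limits and lower in ethanol (17.9% of all probe sets were) and 0 were higher (2.23% of all). In limma 18 of the 62 had an unadjusted p below 0.05, as did 7876 of all 35556 probe sets. After quantile normalization 5 were lower, against 5.87% of all probe sets, and 0 higher, against 5.71%. Their median difference was -0.19 as deposited and -0.09 after quantile normalization, below the medians over all probe sets (-0.15 and -0.004). With arrays left out the count of 16 was between 3 (without ethanol 2, where 9.84% of all probe sets were lower past the limits) and 12 (without control 3, 18.2% of all). It was 6 without ethanol 4 (12.8% of all) and 5 without control 1 (9.8% of all).

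Of 15 sodium channel partners, 4 were lower past the limits as deposited, where 17.9% of all probe sets were. Unc80 and Unc79 belong to the complex of the sodium leak channel Nalcn. Unc80 had 10.96 and 11.10 on ethanol 2 and ethanol 4, against 11.38 and 11.32 on control 1 and control 3, a difference of -0.32 ± 0.10 (-0.29 and past the limits after quantile normalization). Unc79 differed by -0.29, Nedd4l, a ubiquitin ligase of sodium channels, by -0.26, and Nfasc, an anchor protein of nodes and initial segments, by -0.29. None of these 3 was past the limits after quantile normalization. Ank3, which gathers sodium channels at the initial segment, differed by -0.24 and was not past them in either form.

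Of 16 calcium channel regulators 4 were lower past the limits as deposited (17.9% of all probe sets were). Cabp1, a calcium sensor that binds L- and P/Q-type pores, had 7.59 and 7.75 on ethanol 2 and ethanol 4, against 8.15 and 8.11 on control 1 and control 3. The groups were far apart, with a difference of -0.46 ± 0.10 (adjusted p of 0.171 in limma) and of -0.31 after quantile normalization. Calm3, a calmodulin gene, differed by -0.27 in both forms and was past the limits in both, but as deposited it was not past them with any 1 array left out or in either replicate block. Calm2, the other calmodulin gene measured, differed by 0.10 and was not past them. Stac2, an adaptor of L-type channels, differed by -0.33 and Rimbp2, which tethers calcium channels at the active zone, by -0.29, neither past the limits after quantile normalization. The subunits of calcium/calmodulin-dependent kinase Camk2a, Camk2b, Camk2d and Camk2g differed by -0.08, -0.07, -0.01 and -0.23, and none was past the limits in limma in either form.

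Of 19 genes of calcium release and clearance 6 were lower past the limits as deposited (17.9% of all probe sets were). Slc8a3, a sodium-calcium exchanger, had 8.42 and 8.45 on ethanol 2 and ethanol 4, against 8.93 and 8.76 on control 1 and control 3. Its difference of -0.41 ± 0.10 became -0.28 after quantile normalization and was the only one of the 19 still past the limits there. Orai1, the pore of store-operated calcium entry, differed by -0.39, Atp2a3, a calcium pump of the endoplasmic reticulum, by -0.36, and Itpr2, an inositol trisphosphate receptor, by -0.31. Of 12 pacemaker channel partners 2 were lower past the limits as deposited (17.9% of all probe sets were). Pex5l, which encodes the HCN trafficking protein known as TRIP8b, had 8.69 and 8.86 on ethanol 2 and ethanol 4, against 9.24 and 9.18 on control 1 and control 3. The groups were apart, with a difference of -0.43 ± 0.10 (adjusted p of 0.172 in limma) and of -0.31, again past the limits, after quantile normalization. Pde4a, a phosphodiesterase of cyclic AMP, differed by -0.29 and was not past them after quantile normalization.

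**Figure D5:**
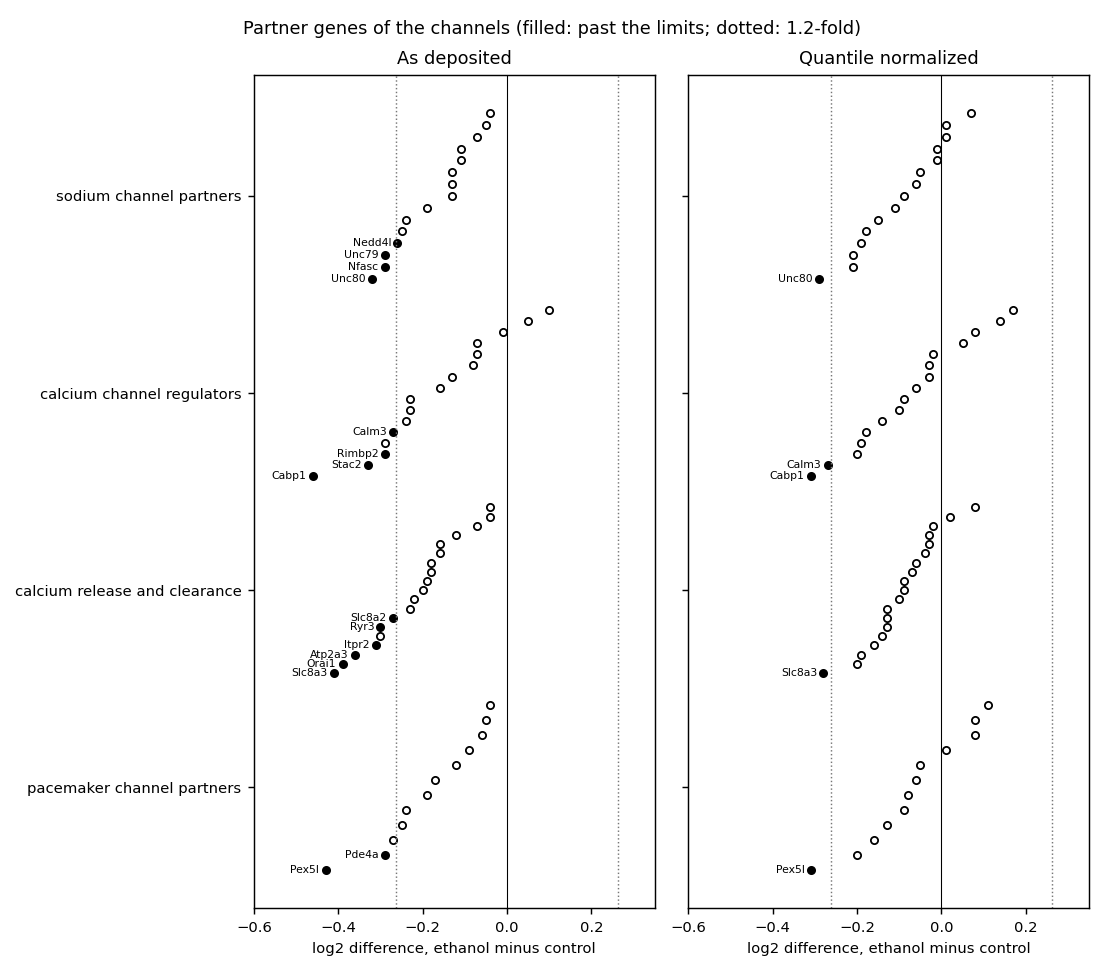
Log2 difference, ethanol minus control (horizontal axis), of the 62 partner genes by list, 1 point per gene, as deposited on the left and quantile normalized on the right, with filled and named points past the limits and dotted lines at 1.2-fold. All 16 filled points on the left and all 5 on the right lie below 0, with Cabp1 at -0.46 and Pex5l at -0.43 the lowest on the left.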

How the data were processed

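Whole brain RNA was measured on 4 Affymetrix Mouse Gene 1.0 ST arrays. The authors summarized the probes with the RMA algorithm, an adjustment for GC content and quantile normalization in Partek (version 6.6 in the submitters' notes), and deposited log2 values. The array medians of the deposited table nevertheless differ. Values were tested as deposited with limma (version 3.58.1, R 4.3.3; 2 residual and 2.57 prior degrees of freedom), two-sided, with the Benjamini-Hochberg adjustment over 35556 probe sets and no filter on dim probe sets. Limits were 1.2-fold and an unadjusted p of 0.05. Arrays give no counts, so their number sets the precision. With 2 arrays against 2, an exact two-sided permutation test cannot go below 0.333.

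Symbols come from the platform annotation, and all 54 channel probe sets matched a mouse gene table (GRCm38.p6) by Entrez ID. Of 35556 probe sets, 1613 name several genes and 12146 none. In the lists a gene is represented by its brightest probe set. The members and lists were chosen with earlier results of these data known. Named genes are channel genes past the limits in either form, the smallest p of a class with none, every Hcn gene, and up to 4 genes per partner list. Channel genes with a known role were named whether or not they passed.

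Alternatives were quantile normalization, median centring, grouping by the treatment entry, an intensity trend, only probe sets with a mean log2 of at least 5, the methods' one-way ANOVA, a 1.5-fold limit, each array left out, both pairings as a replicate block, and ethanol 2 against control 3 alone. The treatment entry and the left-out arrays combined with quantile normalization were added after the data were seen. The fits were tested on simulated data with known changes.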

Additional observations from a re-analysis of the deposited data

How the results depend on the processing

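With 2 arrays per group, leaving out 1 array also takes away degrees of freedom. A call can then be lost while its difference hardly changes, as for Hcn4 (-0.41, and -0.40 without ethanol 2). Others moved in size, as Cacna1c did (-0.39, and -0.30 without ethanol 2). A p that misses the limit does not show that signals were equal. The share of all probe sets lower past the limits was 17.9% in the main fit and 5.87% after quantile normalization. It was 8.11% with the methods' one-way ANOVA, 3.91% with centred arrays and 3.63% at 1.5-fold. With groups from the treatment entry it was 0.686%, and 1.36% after quantile normalization. For higher probe sets the shares were, in the same order, 2.23%, 5.71%, 0.765%, 9.09%, 1.14%, 0.917% and 1.41%. The 6 channel probe sets lower past the limits became 3 with the methods' one-way ANOVA, 1 with centred arrays, 1 at 1.5-fold, 0 with groups from the treatment entry and 1 with that entry after quantile normalization. Leaving out an array gave 5 to 6 as deposited and 2 to 4 after quantile normalization. The 1 higher probe set became 2 after quantile normalization, 5 with centred arrays, 0 with the treatment entry, 0 at 1.5-fold and 2 with the treatment entry after quantile normalization, and 1 to 2 with an array left out. The 16 lower partner genes became 5 after quantile normalization, 10 with the ANOVA, and 0 with centred arrays, at 1.5-fold and with the treatment entry in both forms. Leaving out an array gave 3 to 12 as deposited and 0 to 3 after quantile normalization. The 0 higher partner genes became 1 with centred arrays (Calm2). Over all probe sets, centring moved the median difference to 0.07.

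The replicate block gave 6 lower channel probe sets with ethanol 2 paired to control 1 and 5 with ethanol 2 paired to control 3, and 12 lower partner genes in both. Over all probe sets 17% and 16.7% were lower past the limits with these pairings. The labels do not say which pools hold littermates.

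Over the 54 channel probe sets the sign turned in 27 with groups from the treatment entry, 31 with centred arrays and 15 after quantile normalization. Among the genes followed through every setting, the treatment entry turned Scn3a (0.05, and 0.03 after quantile normalization) and Scn2a 10472380 (0.05 and 0.04). It also turned Scn4b (0.11 and 0.10), Hcn2 (0.02 and 0.01) and, after quantile normalization, Scn2a 10472400 (-0.10). Cacna1b came to 0.00 with that entry as deposited. With centred arrays Cacnb1 came to 0.01 and Cacna2d2 to 0.00, values too near 0 to give a direction. Centring shifts every difference by the same amount. The cause of the other turns was not tested.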
